A study of Laxus oneistus with 16 samples.

Results

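Of 19093 *L. oneistus* transcripts that passed a filter on low counts, 60 were fully separated by the presence of oxygen, which is 0.314% of those tested. Their level in each of the 7 libraries from worms kept without oxygen lay outside the range of the 9 libraries from worms kept with oxygen. In 46 transcripts (0.241%) the lowest of the 7 lay above the highest of the 9, and in 14 (0.0733%) the highest of the 7 lay below the lowest of the 9. These are called the rising and the falling set, after the order of their libraries and not after a test. Since this order chose the transcripts, their difference between the presence and the absence of oxygen is given as a description, with no p-value. With 1 library left out the rising set had 44 to 74 members (74 without O replicate 6) and the falling set 16 to 28, with 22 or more without A replicates 1, 2 or 3 or O replicates 1, 2, 3 or 6. The files hold 27984 transcripts in all.

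*L. oneistus* is a marine nematode of shallow sand that carries a coat of a single bacterial symbiont, *Ca.* Thiosymbion oneisti. Batches of 50 field-collected adults with their coat were kept in the dark for 24 h in filtered seawater under 4 regimes. In O, the oxic incubation, open vials stood in seawater bubbled with air (6 libraries), in H, the hypoxic incubation, open vials were exposed to air (3), in A, vials were kept under nitrogen (4, numbered 1, 2, 3 and 5), and in AS, vials were kept under nitrogen with 11 µM sulfide added (3). Each library holds the rRNA-depleted RNA of whole worms of 1 batch, so less RNA per cell and fewer cells of a type cannot be told apart. Worms came from several field trips, the labels do not say which batch came from which trip, and the p-values therefore measure the spread between these batches.

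Animals sense oxygen largely through prolyl hydroxylases, enzymes that use it to mark the transcription factor HIF for breakdown. Without oxygen the mitochondrial respiratory chain lacks its final electron acceptor, and nematodes such as parasitic worms and *C. elegans* can use fumarate in its place with the electron carrier rhodoquinone. Sulfide is both a poison of cytochrome c oxidase and the electron donor of the symbiont.

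The deposited values are estimated counts per transcript of a *de novo* assembly, and levels are given as CPM, counts scaled to the size of the library with TMM factors and not divided by transcript length. Library totals ranged from 9032241 to 18627740 reads. A group of 5499 transcripts had 0.569% to 1.45% of all reads in 5 libraries (A replicates 3 and 5, and O replicates 2, 3 and 5) and no more than 0.00453% elsewhere. The group was chosen for reads in these 5 libraries and near absence from the others, so its low share elsewhere follows from this. Of these transcripts 1029 passed the filter and 0 belonged to the 60. The 5 libraries lie on both sides, so transcripts nearly absent elsewhere could hardly separate A and AS from O and H. Nothing is read from this 0. The summed levels of 24 muscle transcripts (22580 to 39350 CPM without oxygen and 22540 to 34640 with it), 3 yolk protein transcripts (5727 to 17730 and 3932 to 23080) and 5 histone transcripts (394 to 518 and 419 to 839) overlapped between the libraries with and without oxygen.

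A transcript is written here as its assembly tag without the leading TRINITY, and by its DN number alone after the first mention. None of the 60 was among the 172 transcripts that the study lists by function, some of them only as unknown or hypothetical and without a gene name. Nor was any among the 1129 whose annotation was used here from a longer table, of which 190 were tested. The 60 are therefore described by their levels, and no gene name or role is given to any of them. No pair of them came from the same cluster of contigs as defined by the assembler. The assembly was merged from separate sub-assemblies, and the study kept only the longest isoform of each gene in each. Members from the same sub-assembly therefore could not share a gene as the assembler defined it. A gene left as several separate contigs could still give several members. Genes and clusters were not matched between sub-assemblies, so a gene assembled in both would go unseen. Whether the 60 come from distinct genes was not tested.

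In the rising set, the mean level without oxygen was between 1.14 and 14.6 times the mean with oxygen, with a median of 1.69. The ratio was at least 1.5 in 31 of the 46 and at least 2 in 16. The gap between the lowest library without oxygen and the highest with oxygen was smaller, with a median of 1.08-fold (1.001 to 2.00). It was under 1.1-fold in 27 transcripts, 1.26-fold or more in 8 and at least 1.5-fold in 2.

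DN52369_c0_g1_i11_4dedup had the widest gap of the rising set, 2.00-fold. It was at 153, 161, 244 and 252 CPM in the A libraries, at 283, 206 and 206 CPM in AS, at 57.3, 38.0 and 62.2 CPM in H and at 49.3 to 76.3 CPM in O (median 67.3). The A libraries formed a lower and a higher pair, but A replicate 1, the lowest of the 7, was still well above O replicate 6, the highest of the 9. Its mean was 215 ± 47.8 CPM (SD, n = 7) without oxygen and 61.0 ± 11.6 CPM (SD, n = 9) with oxygen, a ratio of 3.52.

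The next widest gap, 1.87-fold, was that of DN44744_c0_g2_i5_4dedup, a transcript of lower level. It was at 15.7, 18.4, 21.1 and 30.7 CPM in A, at 36.2, 18.5 and 22.9 CPM in AS, at 8.43, 5.50 and 8.41 CPM in H and at 4.52 to 7.27 CPM in O (median 5.81). As with DN52369, A replicate 1 was the lowest and AS replicate 1 the highest of the libraries without oxygen. The ratio of the means was 3.68, from 23.4 ± 7.42 CPM (SD, n = 7) against 6.35 ± 1.47 CPM (SD, n = 9).

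In 5 further transcripts the sides were between 1.27-fold and 1.32-fold apart. DN83911_c0_g1_i1_9dedup was at 21.8, 23.4, 32.1 and 28.2 CPM in A, at 31.3, 18.3 and 19.8 CPM in AS, at 6.53, 8.15 and 12.4 CPM in H and at 6.11 to 13.9 CPM in O (median 8.51). DN90029_c1_g1_i2_9dedup was at 66.9, 72.9, 57.4 and 44.3 CPM in A, at 49.9, 61.2 and 50.8 CPM in AS, at 28.0, 22.7 and 19.9 CPM in H and at 13.7 to 33.8 CPM in O (median 23.9). In these transcripts the A and AS libraries overlapped, and their mean ratios were 2.72 and 2.43. In DN90029 A replicate 5 was the lowest of the 7 libraries, whereas in DN52369 it was the highest of the A libraries.

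DN53013_c0_g2_i2_4dedup was at 48.5, 46.2, 63.4 and 74.6 CPM in A, at 77.3, 53.1 and 76.4 CPM in AS, at 36.4, 29.6 and 24.8 CPM in H and at 25.2 to 36.4 CPM in O (median 29.9), a ratio of 2.07. It again had A replicates 1 and 2 at the low end of the 7. DN92384_c0_g1_i2_9dedup was at 36.7, 34.5, 33.8 and 51.6 CPM in A, at 53.8, 63.5 and 65.5 CPM in AS, at 24.9, 15.7 and 22.4 CPM in H and at 19.6 to 25.8 CPM in O (median 22.1). Here every AS library was above every A library, with A replicate 5 close below them.

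DN40363_c0_g1_i1_4dedup, a transcript of low level, was at 4.55, 2.91, 4.26 and 2.94 CPM in A, at 9.12, 6.38 and 10.7 CPM in AS, at 2.202, 2.26 and 1.06 CPM in H and at 1.21 to 2.15 CPM in O (median 1.85). It too had all AS libraries above all A libraries. DN94161_c0_g1_i2_9dedup had a gap of 1.24-fold and lay at 52.7, 54.4, 66.3 and 54.1 CPM in A, at 55.2, 57.8 and 78.5 CPM in AS, at 42.6, 38.0 and 35.2 CPM in H and at 30.0 to 40.6 CPM in O (median 33.8). Its ratio of means was 1.66.

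**Figure D1:**
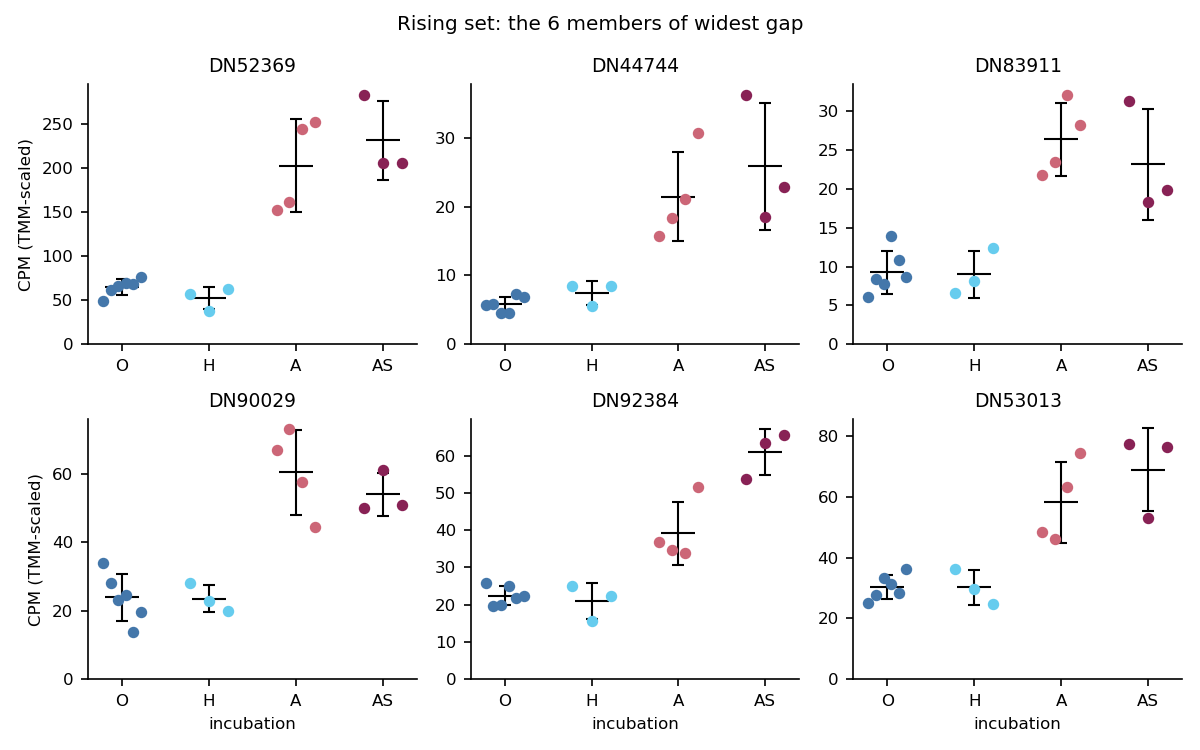
Level (CPM after TMM scaling) of 6 transcripts of the rising set in each library, by incubation. Each point is a library, the horizontal bar is the mean and the error bar the SD (n = 6 for O, 3 for H, 4 for A and 3 for AS). In DN52369 the A and AS libraries lie between 153 and 283 CPM and the O and H libraries between 38.0 and 76.3 CPM.

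The 6 members of highest level had ratios between 1.20 and 1.87. DN88579_c0_g1_i4_9dedup, with the highest mean of the set, was at 266, 266, 344 and 397 CPM in A, at 388, 371 and 472 CPM in AS, at 222, 194 and 189 CPM in H and at 139 to 233 CPM in O (median 187), a ratio of 1.87. DN52380_c0_g1_i4_4dedup had little spread, with 210.3 to 256 CPM in the 7 libraries without oxygen and 145 to 171 CPM in the 9 with it, a ratio of 1.45. DN53848_c2_g1_i2_4dedup was similar, with 160.0 to 187 CPM against 114 to 134 CPM and a ratio of 1.41. In DN52380 and DN53848 the sides were 1.23-fold and 1.20-fold apart.

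The sides lay closer together in the other transcripts of high level. DN92956_c0_g1_i5_9dedup was at 138 to 185 CPM without oxygen and at 112 to 128 CPM with it, a ratio of 1.35. DN48377_c0_g1_i7_4dedup was at 266 to 299 CPM against 206 to 264 CPM, a ratio of 1.20. DN94970_c1_g1_i2_9dedup was at 214 to 299 CPM against 142 to 212 CPM, a ratio of 1.32. The sides of DN48377 and DN94970 were only 1.01-fold apart, which is less than the spread between libraries of either side.

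The values at the limit of the rule show how small a step decides membership. Just inside it were DN94970, DN92179_c1_g1_i3_9dedup (lowest without oxygen 54.9 CPM, highest with oxygen 54.5 CPM) and DN87757_c0_g1_i1_9dedup (9.596 and 9.588 CPM). Just outside were DN85009_c2_g1_i1_9dedup (117.8 and 118.0 CPM), DN94168_c0_g1_i7_9dedup (38.6 and 38.7 CPM) and DN93005_c0_g1_i2_9dedup (72.5 and 72.9 CPM). In DN87757 the means were nevertheless apart, at 17.3 ± 4.09 CPM (SD, n = 7) and 6.26 ± 2.08 CPM (SD, n = 9), since AS replicate 3 and O replicate 1 alone met at the boundary.

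Single libraries also set the boundary in other transcripts of the rising set. A replicate 1 was the lowest library without oxygen in 13 of the 46 and A replicate 2 in 9, whereas A replicate 3, AS replicate 1 and AS replicate 2 were the lowest in 4 each. At the upper end, AS replicate 3 was the highest of the 7 in 14 and A replicate 1 in 2. With oxygen, O replicate 1 was the highest library in 10 and H replicate 1 in 8, while H replicate 3 was the highest in 1.

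**Figure D2:**
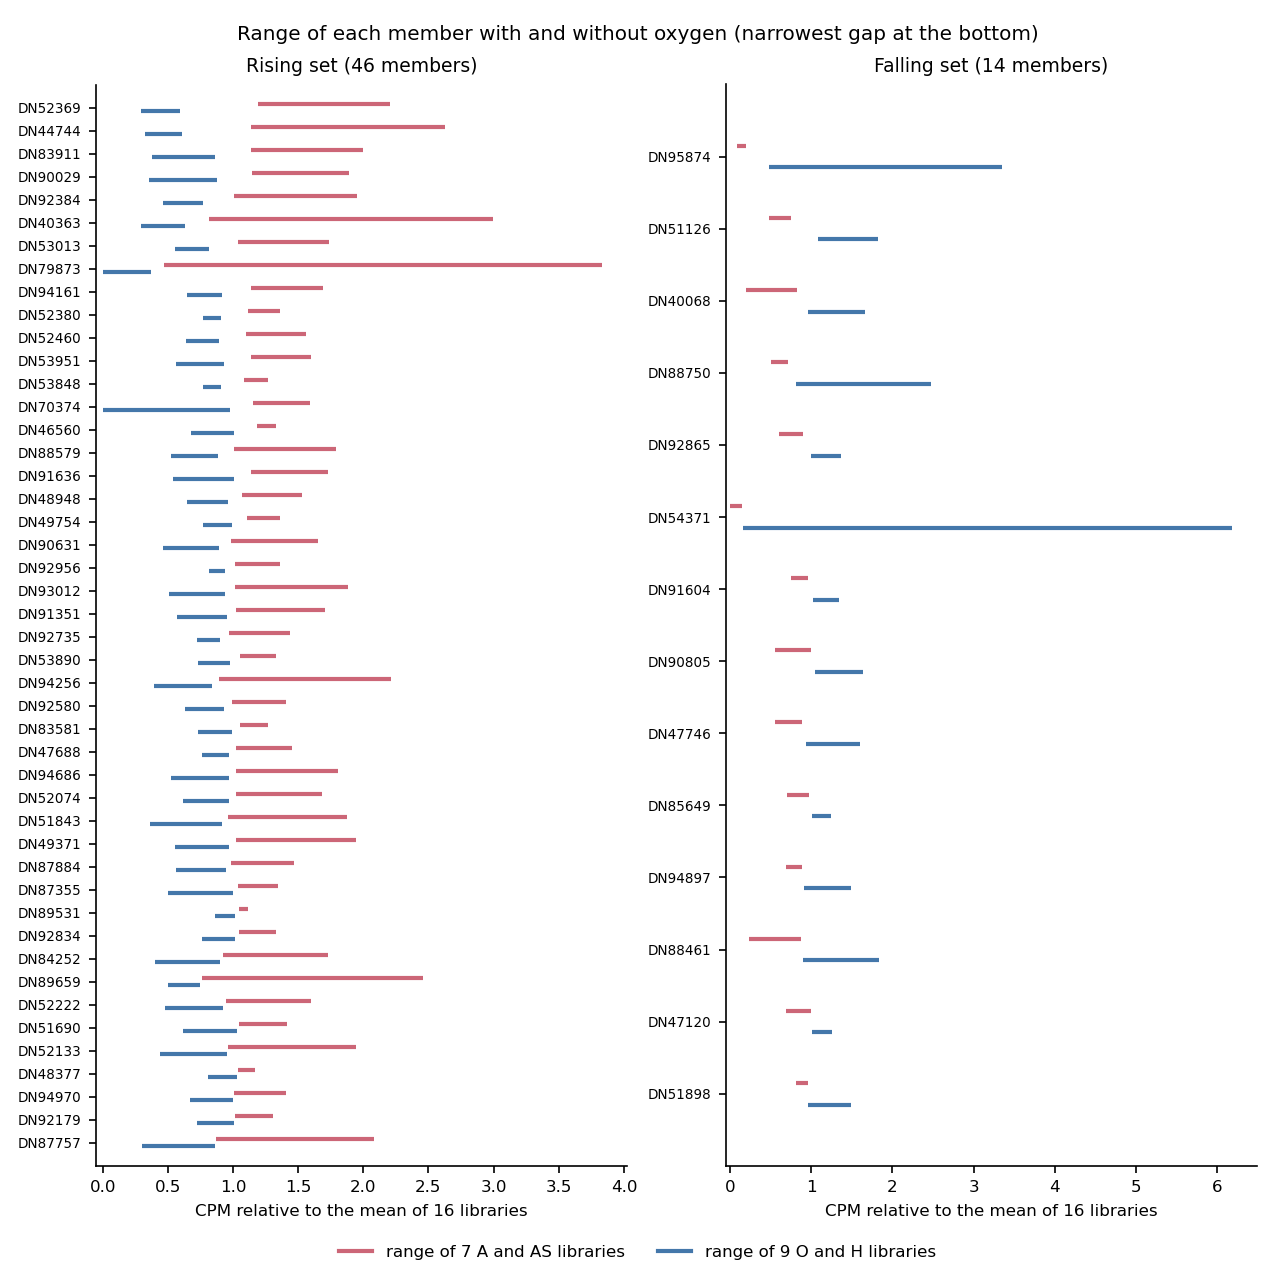
Range of CPM in the 7 A and AS libraries (red) and the 9 O and H libraries (blue) for each of the 46 transcripts of the rising and the 14 of the falling set, relative to the transcript's mean over 16 libraries and sorted by the width of the gap. The bars of a transcript never overlap, as the rule requires, but the gap was under 1.1-fold in 27 transcripts of the rising and 9 of the falling set.

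The falling set was smaller and held the transcript with the largest ratio of both sets, DN54371_c3_g1_i3_4dedup. The mean level with oxygen was between 1.20 and 27.3 times that without, with a median of 1.59. It was at least 1.5 times in 8 of the 14 and at least 2 times in 5. The gap had a median of 1.06-fold (1.01 to 2.44), and was under 1.1-fold in 9, 1.44-fold or more in 2 and at least 1.5-fold in 1.

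DN95874_c9_g2_i5_9dedup had the widest gap of both sets, 2.44-fold. It was at 16.4, 15.8, 15.4 and 7.44 CPM in A, at 14.9, 12.0 and 9.26 CPM in AS, at 244, 67.5 and 161 CPM in H and at 40.0 to 282 CPM in O (median 93.6). The 7 libraries without oxygen lay close together, whereas those with oxygen spread widely, from O replicate 1 to O replicate 3. The means were 13.0 ± 3.53 CPM (SD, n = 7) without oxygen and 139 ± 89.2 CPM (SD, n = 9) with it, a ratio of 10.7.

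DN54371 had a ratio of 27.3 but a gap of 1.09-fold. It was at 3.33, 3.64, 6.30 and 0 CPM in A, at 3.66, 1.81 and 0.817 CPM in AS, at 272, 45.6 and 104 CPM in H and at 6.86 to 77.3 CPM in O (median 43.4). O replicate 1 set the lower end with oxygen, with 128 reads, and the other O libraries had 481 to 823 reads. H replicate 1 had 3586 reads and A replicate 5 had 0. DN95874 and DN54371 therefore shared O replicate 1 as their lowest library with oxygen.

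DN51126_c1_g1_i2_4dedup had the next widest gap, 1.44-fold. It was at 69.1, 75.2, 74.97 and 47.98 CPM in A, at 50.7, 65.2 and 60.8 CPM in AS, at 183, 120.2 and 145 CPM in H and at 109 to 138 CPM in O (median 115). Its means were 63.4 ± 10.9 CPM (SD, n = 7) and 129 ± 23.8 CPM (SD, n = 9), a ratio of 2.04. The A and AS libraries overlapped, as did the H and O libraries.

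Transcripts of low level made up 3 of the remaining 11. DN40068_c0_g2_i1_4dedup was at 1.57 to 6.60 CPM without oxygen (median 5.09) and at 7.76 to 13.4 CPM with it (median 11.0), a ratio of 2.42. DN88750_c0_g1_i3_9dedup was at 1.78 to 2.52 CPM (median 2.10) and at 2.89 to 8.79 CPM (median 3.84), a ratio of 2.18. DN88461_c1_g1_i4_9dedup was at 1.57 to 5.80 CPM (median 4.87) and at 5.95 to 12.1 CPM (median 7.79), a ratio of 1.82. The lowest library counts of these transcripts were 23, 24 and 24 reads, fewer than in most members of the set.

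**Figure D3:**
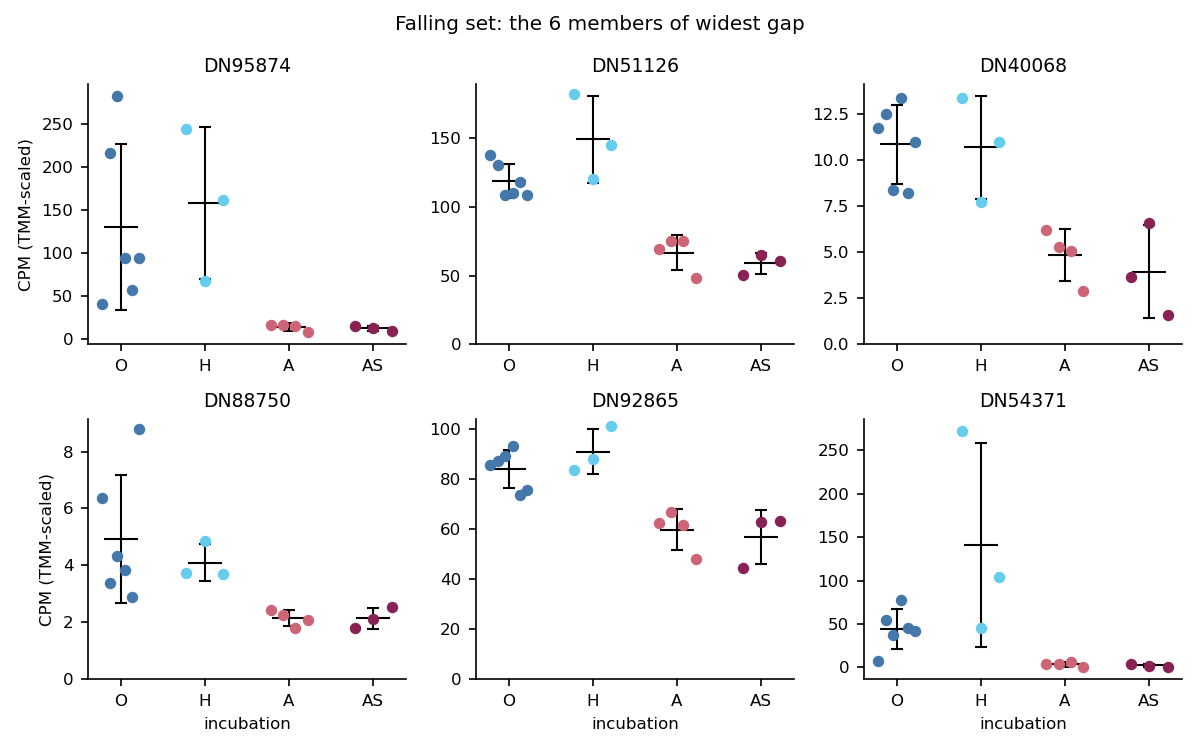
Level (CPM after TMM scaling) of 6 transcripts of the falling set in each library, by incubation. Each point is a library, the horizontal bar is the mean and the error bar the SD (n = 6 for O, 3 for H, 4 for A and 3 for AS). In DN95874 the A and AS libraries lie between 7.44 and 16.4 CPM and the O and H libraries between 40.0 and 282 CPM.

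The other 8 had ratios of 1.60 or less. DN92865_c0_g1_i7_9dedup was at 44.3 to 66.8 CPM without oxygen and at 73.7 to 101 CPM with it, a ratio of 1.48. DN91604_c0_g1_i4_9dedup was at 72.1 to 92.3 CPM and at 97.9 to 129 CPM, a ratio of 1.38. DN47746_c0_g1_i1_4dedup was at 24.5 to 39.5 CPM and at 41.5 to 71.5 CPM, a ratio of 1.60. In DN91604 and DN47746, as in 5 more transcripts of the set, H replicate 1 was the highest library with oxygen.

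DN90805_c0_g1_i8_9dedup was at 11.8 to 21.2 CPM without oxygen and at 22.4 to 35.2 CPM with it, a ratio of 1.58. DN94897_c6_g1_i1_9dedup was at 45.8 to 59.0 CPM and at 60.7 to 98.7 CPM, a ratio of 1.43. DN85649_c0_g1_i8_9dedup was at 25.7 to 35.5 CPM and at 36.8 to 45.2 CPM, a ratio of 1.34. On the side without oxygen, A replicate 5 was the lowest library in 6 of the 14 falling transcripts, and A replicate 1 was the highest, nearest to the other side, in 5.

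Closest to the limit were DN47120_c0_g1_i1_4dedup (highest without oxygen 40.7 CPM, lowest with oxygen 41.1 CPM) and DN51898_c0_g1_i4_4dedup (30.4 and 30.7 CPM), with ratios of 1.23 and 1.20. Just outside were DN94089_c1_g1_i5_9dedup (30.7 and 30.6 CPM), DN52548_c0_g1_i1_4dedup (267 and 266 CPM) and DN80150_c0_g1_i2_9dedup (6.30 and 6.21 CPM). For these transcripts the step across the limit was smaller than the SD between the libraries of a side.

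The conditions of the same side overlapped in the summed level of both sets. The summed level of the rising set was 3611 ± 273 CPM in A (SD, n = 4), 3972 ± 149 CPM in AS (SD, n = 3), 2358 ± 84.4 CPM in H (SD, n = 3) and 2335 ± 91.6 CPM in O (SD, n = 6). AS ranged from 3813 to 4109 CPM and A from 3357 to 3848 CPM, so these overlapped, and H (2306 to 2456 CPM) overlapped with O (2160 to 2424 CPM).

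The summed level of the falling set was 436 ± 40.5 CPM in A, 414 ± 26.7 CPM in AS, 959 ± 267 CPM in H and 779.6 ± 86.7 CPM in O, with the same n. In H it ranged from 723 to 1249 CPM, which takes in most of the O range of 665 to 895 CPM. The order of the sides in these sums follows from the rule.

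**Figure D4:**
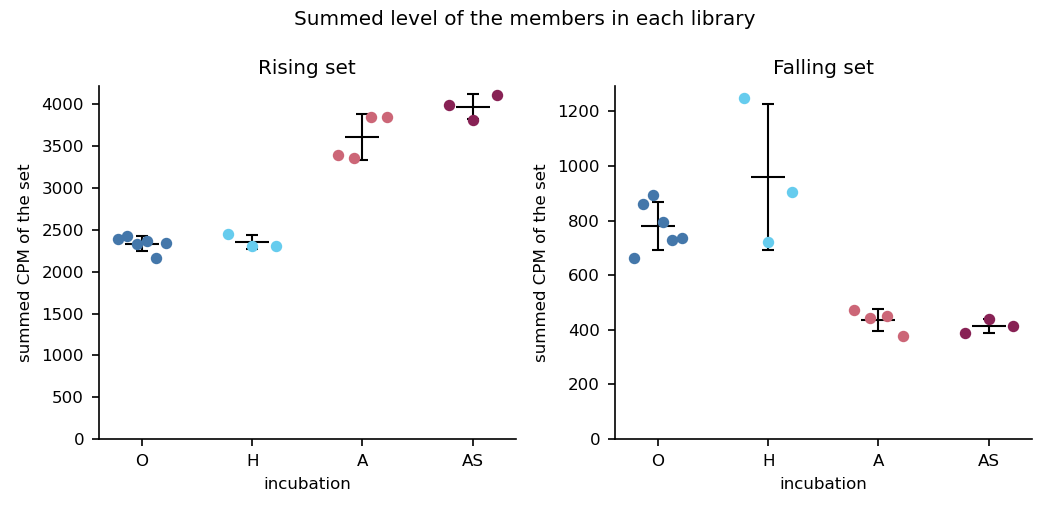
Summed CPM of the 46 rising and the 14 falling transcripts in each library, by incubation, with the mean (bar) and SD (error bar, n = 6 for O, 3 for H, 4 for A and 3 for AS). The A and AS libraries lie between 3357 and 4109 CPM in the rising set and between 378 and 471 CPM in the falling set.

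The rule took the libraries of a side together, whichever their condition. A wide difference between the conditions of the same side makes membership less likely. Counts among the 60 are therefore no independent comparison with all transcripts. Differences within a side were tested with edgeR's quasi-likelihood F-test over all 19093 transcripts (called: FDR by Benjamini-Hochberg up to 0.05, with a difference of 1.5-fold or more). Between AS and A, 2 transcripts were past both limits, both lower in AS (0.0105%) and neither of them among the 60. The count over all transcripts was 48 without A replicate 5, 0 without A replicate 1, A replicate 3 or any AS replicate, 5 to 8 without A replicate 2 or O replicates 2, 5 or 6, and 119 with edgeR's likelihood ratio test. Of the 60, 0 were called in any of these fits. Of all transcripts 3042 (15.9%) had an unadjusted p under 0.05, against 9 of the 46 in the rising set (19.6%) and 0 of the 14 in the falling set. The smallest FDR among the 60 was 0.209. DESeq2's Wald test called 446 of the 19093 transcripts between AS and A, among them 2 of the 60, DN40363 and DN79873_c0_g1_i2_9dedup. The call of these 2 is no result about the set.

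In the rising set, the median log2 fold change between AS and A was 0.16 and the mean was higher in AS in 30 of the 46 (65.2%), against a median of -0.03 and 46.9% over all transcripts. Of the 9 with an unadjusted p under 0.05, 7 were higher and 2 lower in AS. The AS libraries were all above the A libraries in 5 transcripts (10.9%, against 5.31% of all tested). In 2, DN79873 and DN87757, they were all below the A libraries (4.35%, against 4.93%). The median was 0.05 without AS replicate 3, the highest library in 14 of the 46.

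DN40363 and DN92384, for which the values are given above, had all AS libraries above all A libraries. DN40363 had a mean of 3.66 ± 0.862 CPM in A (SD, n = 4) and 8.73 ± 2.18 CPM in AS (SD, n = 3), with an edgeR FDR of 0.209. The log2 fold change of DN92384 was 0.64 (SE 0.18, edgeR FDR 0.226). DESeq2 gave DN40363 a log2 fold change of 1.23 and an adjusted p of 0.0374. The edgeR test over all transcripts called neither of them.

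DN79873 had the opposite order and was chosen for description after its values were seen. It was at 5.05, 5.37, 5.09 and 6.66 CPM in A, at 1.05, 1.52 and 0.817 CPM in AS, at 0.152, 0.647 and 0.152 CPM in H and at 0 to 0.466 CPM in O (median 0.217). This corresponds to 80 to 102 reads in A, 12 to 21 in AS and 0 to 10 in the libraries with oxygen. AS lay between A and the libraries with oxygen, with a log2 fold change against A of -2.29 (SE 0.89, edgeR FDR 0.296) and, in DESeq2, of -2.32 (adjusted p = 0.0419). Its ratio between the sides, 14.6, was the highest of the rising set, and its gap was 1.26-fold, between AS replicate 3 and H replicate 2.

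Other transcripts chosen after their values were seen also differed between A and AS in their mean level. In DN89659_c0_g1_i2_9dedup the A libraries were at 24.1, 30.2, 43.2 and 48.1 CPM and the AS libraries at 77.4, 49.7 and 53.7 CPM, while the 9 libraries with oxygen were at 15.8 to 23.6 CPM. Its log2 fold change between AS and A was 0.73 (SE 0.22, edgeR FDR 0.253). In DN94256_c0_g1_i2_9dedup the mean was lower in AS, with 66.03, 60.8, 44.4 and 33.8 CPM in A and 29.7, 37.5 and 26.6 CPM in AS, but these ranges overlapped. Its log2 fold change was -0.71 (SE 0.26, edgeR FDR 0.296). The sides of DN94256 were 1.06-fold apart.

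In the falling set the mean was higher in AS in 3 of the 14 (21.4%), against 46.9% over all transcripts. The median log2 fold change between AS and A was -0.09, against -0.03. The largest values were -0.67 in DN54371 (SE 0.94, edgeR FDR 0.804) and 0.56 in DN88461 (SE 0.32, edgeR FDR 0.434). DN88461 was the member of this set with all AS libraries above all A libraries.

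Between H and O, edgeR's quasi-likelihood test called 0 of 19093 transcripts. The smallest FDR was 0.209, and 2471 transcripts (12.9%) were at an unadjusted p under 0.05. DESeq2 called 127 of the 19093, none of them among the 60, and nothing is read from this absence. In the rising set the median log2 fold change was 0.01, against -0.03 over all transcripts. The mean was higher in H in 24 of the 46 (52.2%), against 46.8%. Of the 46, 5 had an unadjusted p under 0.05, 1 higher and 4 lower in H. The lowest of these was DN87757, at 3.49, 3.36 and 5.61 CPM in H and 5.60 to 9.59 CPM in O (median 7.14), a log2 fold change of -0.82 (SE 0.25, edgeR FDR 0.385).

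In the falling set the mean was higher in H in 9 of the 14 (64.3%), against 46.8% over all transcripts. The median log2 fold change between H and O was 0.20, against -0.03. Without H replicate 1 the median was 0.005. DN54371 alone had an unadjusted p under 0.05, with a log2 fold change of 1.69 (SE 0.68, edgeR FDR 0.385), and its H and O libraries overlapped. In none of the 60 were all H libraries above or all below the O libraries, against 2.33% and 1.57% of all transcripts tested. Since the rule makes such an order less likely, nothing is read from this count.

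**Figure D5:**
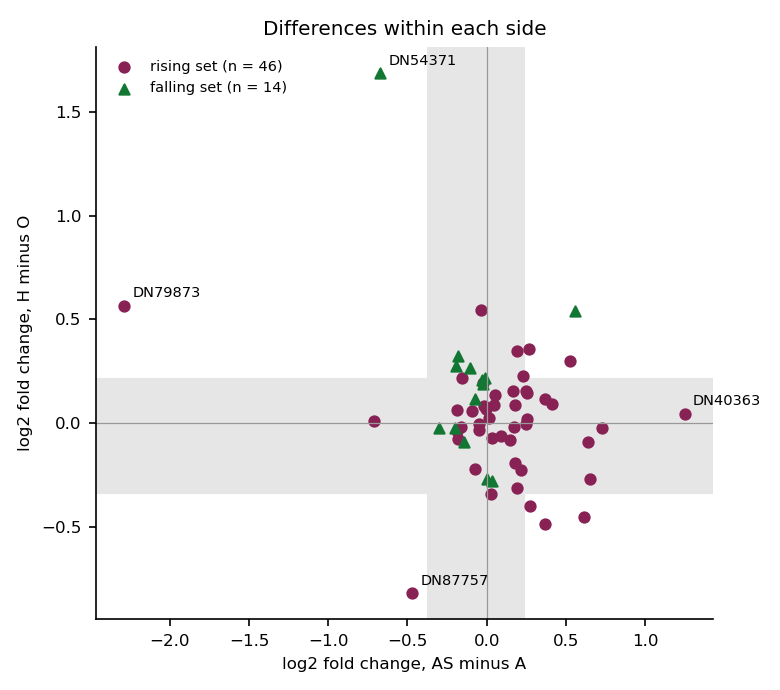
Log2 fold change between AS and A (horizontal axis) and between H and O (vertical axis) of the 46 rising (circles) and 14 falling (triangles) transcripts, with grey bands for the middle 50% of all 19093 transcripts tested. None was called in either comparison. DN79873 lies at -2.29 on the horizontal axis, and DN54371 at 1.69 on the vertical axis.

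The 60 transcripts shared features that the rule did not set directly. Their level was above that of most transcripts, with a median of the mean CPM of 43.8 in the rising and 42.5 in the falling set, against 14.7 over all transcripts, and 41 of 46 and 11 of 14 were above the latter. Their SD within a condition was low, with a median of 0.24 on the log2 scale in both sets against 0.41 over all transcripts. A rule on ranges admits transcripts of low spread more readily, and these values are therefore no independent feature.

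By the ending of their tag, read as the number of input files of a sub-assembly, 20 of the 46 rising (43.5%) and 6 of the 14 falling transcripts (42.9%) came from the smaller of the merged sub-assemblies, which was built from 4 read files, against 26.0% of all tested. Among transcripts above the median level the shares were 43.9%, 45.5% and 36.6%. Reads that match several transcripts are divided among them, and 30.4% of the rising and 50.0% of the falling transcripts had a count with a fractional part in all 16 libraries, against 27.7% of all tested. None had whole counts in every library, against 10.9% of all tested. These shares were not matched on level, and a fractional count in all 16 libraries requires reads in each of them. How reads shared with similar transcripts affect these levels was not tested.

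There were 7 tested transcripts in the clusters of 6 members, and 0 of the 7 were separated, against 0.314% of all tested. With so few, nothing is read from this count. DN51126_c2_g1_i2_4dedup, in the cluster of the falling transcript DN51126, had a mean of 450.0 CPM without and 626 CPM with oxygen, but its ranges (309 to 647 and 434 to 1093 CPM) overlapped. DN49371_c0_g3_i1_4dedup, in the cluster of the rising transcript DN49371_c0_g2_i1_4dedup, had 137 CPM without and 104 CPM with oxygen and overlapping ranges. The mates of the rising transcripts DN51843_c0_g2_i1_4dedup and DN94161 had slightly lower means without oxygen, 182 against 186 CPM and 39.4 against 41.7 CPM.

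None of the 172 listed transcripts belonged to either set, where 0.314% of all tested did, so that the absence of members among so few is no result about their functions. None of the 12 transcripts for energy generation, 18 for carbohydrate metabolism, 16 for stress response, 20 for translation, 3 for ubiquitination, 2 for immune response, 15 for development or cell adhesion and 41 for cytoskeleton and locomotion was separated. The median log2 difference between the libraries without and with oxygen was 0.02 over the 172, against 0.01 over all transcripts.

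By group, the mean log2 level without oxygen was higher in 8 of 12 energy generation transcripts (median difference 0.05), 9 of 18 for carbohydrate metabolism (-0.01) and 6 of 16 for stress response (-0.05). It was higher in 18 of 20 translation transcripts (0.15), or 16 of 20 with any of the other scalings, in 1 of 5 histone transcripts (-0.33) and in 0 of 3 yolk protein transcripts (-0.12). In the other groups it was higher in 3 of 3 for ubiquitination, 1 of 2 for immune response, 7 of 15 for development or cell adhesion, 21 of 41 for cytoskeleton and locomotion and 15 of 24 for muscle. Over all transcripts it was higher in 9984 of 19093, or 9458 to 9568 with the other scalings. None of these differences was tested.

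Of the listed transcripts, the 3 nearest to the rising set were 1 with no match to a known gene, *ant-1.4* and *sucl-2*, and the 3 nearest to the falling set *cts-1*, *his-57* and *fum-1*. *ant-1.4*, for a carrier that exchanges ADP and ATP across the inner mitochondrial membrane, was at 148 to 179 CPM without and 142 to 174 CPM with oxygen. *cts-1*, for citrate synthase, was at 613 to 718 CPM without and 670.3 to 877 CPM with oxygen. *his-57*, for a histone, was at 89.7 to 104 CPM without and 93.1 to 248 CPM with oxygen. *fum-1*, for fumarase, was at 349 to 458 CPM without and 388 to 529 CPM with oxygen. The ranges overlapped in each, also in *sucl-2*, for a subunit of succinyl-CoA ligase (302 to 359 and 256 to 370.4 CPM), and in the transcript with no match, at 1566 to 1823 CPM without and 1166 to 1592 CPM with oxygen.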

How the data were processed

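RNA was sequenced from 16 batches of 50 *L. oneistus*. The authors removed symbiont and rRNA reads, merged 2 Trinity sub-assemblies (of 9 and of 4 read files), mapped reads with Bowtie2 with strand and deposited RSEM 1.3.1 expected counts, which are not normalized. Totals of 9032241 to 18627740 limit precision for transcripts of few reads. Counts were rounded. Those reaching 10 reads in 3 or more libraries of a condition were kept and scaled by TMM in R 4.3.3 with edgeR 4.0.16 (DESeq2 1.42.0 as an alternative); differences between sides are log2 CPM with a prior count of 2. AS against A and H against O were tested in 1 quasi-likelihood fit of all 16 libraries with a mean per condition. Code was tested on simulated data. Tables and plots used Python 3.11.15, numpy 2.4.6, pandas 2.3.3 and matplotlib 3.10.9.

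The members and lists were chosen with earlier results of these data known. Named in each set are the 8 of widest gap (measured with the prior count, which leaves out DN79873_c0_g1_i2_9dedup), the 6 of highest mean, the 3 of narrowest gap with the 3 nearest transcripts outside, any called within a side, and the whole set where it has 20 members or fewer. Transcripts at 0 on both sides of the boundary were not counted as nearest. Alternatives were other scalings, filters, margins, tests, unrounded counts, a replicate block and libraries left out. Replicates differed by more than counting error (chi-square per degree of freedom 16.5 to 125). Transcript sequences were not used here.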

Additional observations from a re-analysis of the deposited data

Results flagged for a closer look

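In groups of 4 or 6 libraries (A and O) of the 30 named transcripts, the library at an end was set against Dixon's 95% limit. It was past the limit in 4 of 60 groups (6.67%), where chance flags about 1 in 20, and 3 of the 4 were in A. In the rising set, DN92384_c0_g1_i2_9dedup was at 51.57 CPM in A replicate 5, against 33.8 to 36.7 CPM in the other A libraries, and DN94161_c0_g1_i2_9dedup was at 66.26 CPM in A replicate 3, against 52.7 to 54.4 CPM. In the falling set, DN95874_c9_g2_i5_9dedup was at 7.442 CPM in A replicate 5, against 15.4 to 16.4 CPM, and DN51898_c0_g1_i4_4dedup was at 38.03 CPM in O replicate 1, against 30.7 to 32.6 CPM in the other O libraries. The rule for the sets used these values and admits a library that stands apart more readily when it lies away from the other side, as all 4 did, so the chance rate holds for these transcripts only roughly and nothing is read from the count.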

How the results depend on the processing

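With the size factors of DESeq2, upper-quartile scaling or total counts, the rising set had 42, 40 or 46 members and the falling set 15, 14 or 13, and 33 of the 46 and 11 of the 14 belonged to them under all 3. No filter, other filters, unrounded counts and TMM factors from all transcripts (chosen after seeing the data) gave 42 to 48 and 14 to 16. The smaller of the minimum gaps tried left 8 and 2 (gaps of 1.26-fold and 1.44-fold or more), one of 1.5-fold left 2 and 1, and 1 library allowed on the wrong side gave 173 and 85. With 1 library left out, which loosens the rule, there were 44 to 74 rising members (74 without O replicate 6) and 16 to 28 falling members (over 1.5 times the main count without A replicates 1, 2 or 3 or O replicates 1, 2, 3 or 6, at 27, 23, 28, 22, 23, 22 and 25). Without all 5 libraries with additional transcripts there were 105 and 85, with 43 of the 46 and all 14 among them.

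Calls between AS and A over all transcripts were 9 with total counts, 0 without a filter, 14 with at least 20 reads, 446 with DESeq2, 119 with edgeR's likelihood ratio test, 0 in a fit of those conditions alone, 0 without the 5 libraries and 0 to 48 with 1 library left out (48, 8, 6, 5 and 5 without A replicate 5, O replicate 2, O replicate 5, A replicate 2 and O replicate 6, and 0 without A replicates 1 or 3 or any AS replicate). Between H and O they were 127 with DESeq2, 28 with the likelihood ratio test and 0 to 2 with 1 library left out (2 without H replicate 2, 1 without O replicate 2). Among the 60, DESeq2 called 2 between AS and A, and no other alternative called any. With the replicate block, 8 transcripts were called between AS and A and 2 between H and O, and 0 of the 60. The replicate numbers were not taken to pair AS with A or H with O, since libraries of the same number correlated in their deviations from the condition means at 0.02, 0.14 and 0.00 (AS and A) and 0.08, -0.19 and -0.10 (H and O). Pairs across the presence of oxygen were not examined. The log2 difference of each of the 30 named members moved by less than its SD within conditions under all 21 alternatives. Its sign was also kept, but the rule all but fixed this, since all libraries of a side lay beyond those of the other. Nothing is read from the kept sign. The causes were not tested.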
